A study of Mus musculus with 10 samples.

Results

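The CXC chemokines are small secreted proteins that draw leukocytes along a gradient and share a motif in which a pair of cysteines is separated by a lone residue. Transcripts of 10 of them, Cxcl1, Cxcl2, Cxcl3, Cxcl5, Ppbp, Cxcl9, Cxcl10, Cxcl12, Cxcl14 and Cxcl16, were followed through 10 RNA sequencing libraries of cultures from mouse inguinal fat. The members were taken by gene symbol, all 10 matched to an Ensembl gene, and they are 10 of the 28987 genes in the tables. All 10 passed the filter on low values (at least 1 TPM in at least 2 libraries), as did 14166 genes in all. Cxcl3 and Ppbp reached 1 TPM in the LPS libraries alone and so passed the filter through that group.

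Fat pads of male C57BL/6 mice aged 6 to 8 weeks were digested with collagenase and dispase, and the cells were grown to confluence in dishes. The submitters call the cells primary white adipocytes, while their treatment text speaks of adipose tissue. Each culture then received its agent for 24 h, and RNA was sequenced from 2 libraries per group. The series asks about BAFF and APRIL in weight gain, and names its other arms controls. The groups were LPS (bacterial lipopolysaccharide, an agonist of Toll-like receptor 4) at 100 ng/ml, norepinephrine (the sympathetic transmitter, an adrenergic agonist) at 1 mM, BAFF (rBAFF in the protocol) at 500 ng/ml, APRIL (rAPRIL) at 500 ng/ml, and saline. BAFF and APRIL are related cytokines of the tumour necrosis factor family, best known for keeping B cells and plasma cells alive. Nothing in the labels ties the paired libraries to separate mice or dishes, so it is not known how far the spread between them is technical. Each p-value measures that spread, pooled over the 5 groups in 1 fit. The muscle gene Mylpf was 5.94 and 79.4 TPM in saline, 8.84 and 69.05 with LPS, and 73.0 and 11.3 in APRIL. The paired libraries thus also differed in muscle transcripts.

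CXC chemokines fall into branches by receptor. Members with the residues Glu-Leu-Arg before the first cysteine (ELR+; Cxcl1, Cxcl2, Cxcl3, Cxcl5 and the processed product of Ppbp) act on Cxcr2 and draw neutrophils, and their genes respond to NF-kB, the transcription factor downstream of Toll-like receptors. Cxcl9 and Cxcl10 act on Cxcr3 of activated T and NK cells and are classic targets of interferon signalling. Cxcl12 acts on Cxcr4 and keeps progenitors and lymphocytes in their niches, Cxcl16 is a membrane-anchored ligand of Cxcr6, and Cxcl14 is made constitutively in many tissues. In fat, stromal cells, adipocytes and macrophages can all make some of these proteins.

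All values are TPM (the abundance of a gene's transcripts relative to all transcripts of its library, scaled for transcript length), so levels of different genes can be set side by side. TPM hold no read counts, the depth of each library is unknown, and no counting interval can be given. The adipocyte markers Adipoq and Fabp4 were present in all 10 libraries, the 10 adipocyte markers summed to 2387 to 15080 TPM, and 12 macrophage markers summed to 296.1 to 1593 TPM. In these bulk cultures fewer cells of a type and less RNA per cell cannot be told apart. The pair labelled APRIL was unlike the rest. Their log2(TPM + 1) values correlated with those of the other 8 at r = 0.850 to 0.886, against 0.948 to 0.991 among the other 8. Although all 10 are labelled male, 4 genes of the Y chromosome (Kdm5d, Uty, Ddx3y and Eif2s3y) together reached 0.489 and 0.775 TPM in this pair, against 93.8 to 123 TPM elsewhere. They are therefore called the libraries labelled APRIL throughout, and their differences from any other group cannot be told apart from whatever else sets them apart.

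Under saline the transcripts of this family were mostly Cxcl14 and Cxcl12. The 10 genes summed to 671.6 and 689.6 TPM, of which Cxcl14 made up 61.9% and 65.0% and Cxcl12 31% and 30.2%. Cxcl16 came next with 4.24% and 2.0%. The 5 ELR+ genes together held 1.22% and 1.57%, so the neutrophil attractants were rare messages in saline cultures.

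**Figure D1:**
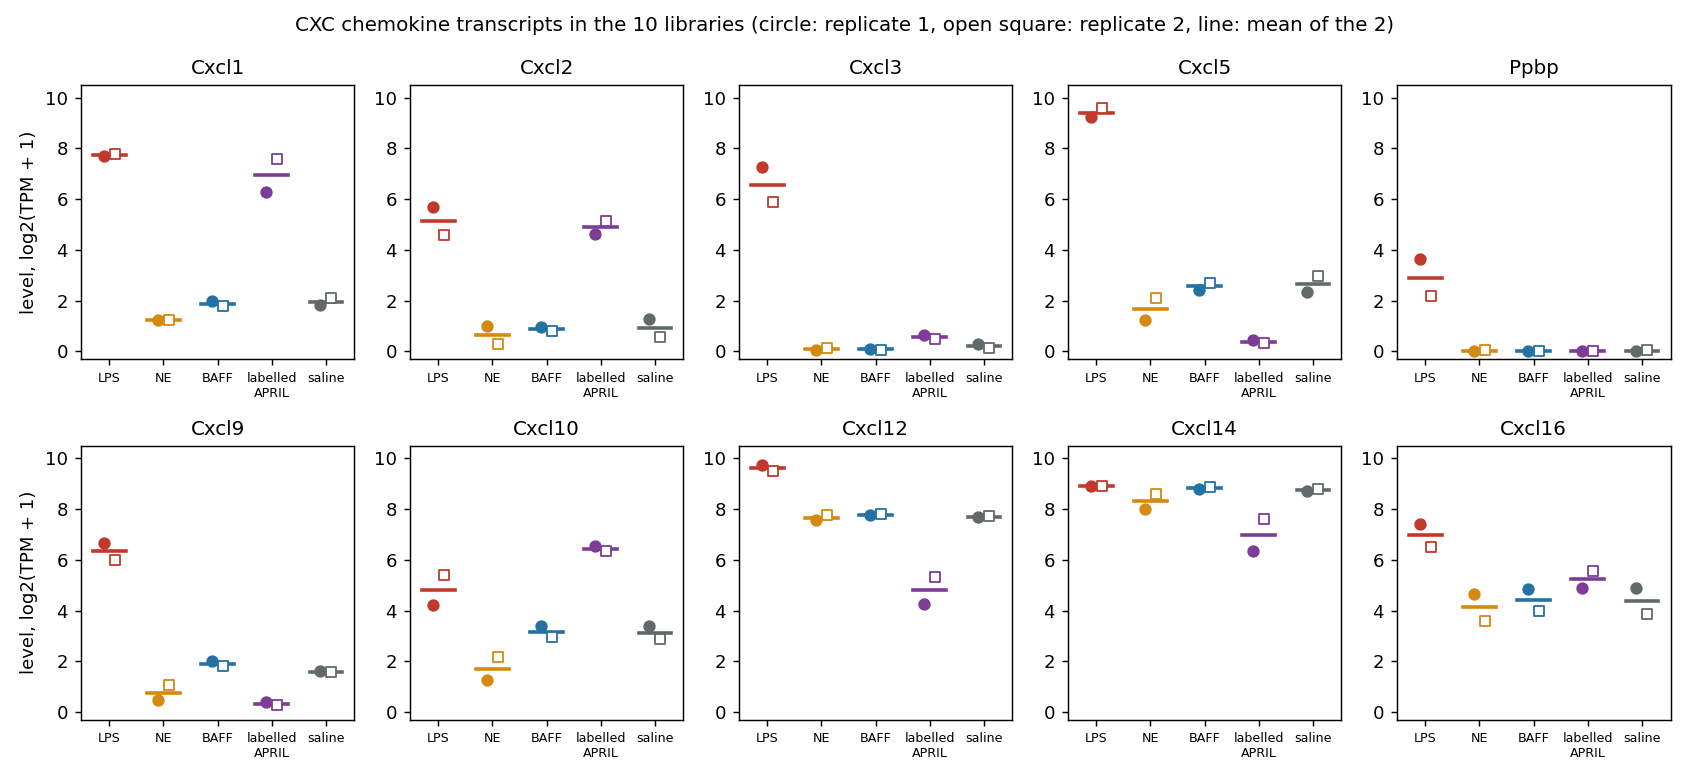
Level of each CXC chemokine gene on the log2(TPM + 1) scale in every library, by treatment (NE, norepinephrine); circles are replicate 1, open squares replicate 2, and lines the mean of the 2. The LPS mean is the highest for 9 of the 10 genes, and that of the libraries labelled APRIL is the highest for Cxcl10.

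LPS raised most of the family. Of the 10 genes 8 were higher in LPS than in saline and 0 were lower at an adjusted p under 0.05 (limma on log2(TPM + 1), Benjamini-Hochberg adjustment over all 14166 genes), where 3.8% of all genes tested were called in either direction, 2.87% higher and 0.932% lower. The median log2 difference of the 10 genes was 3.55, against -0.01 over all genes tested. Cxcl3 and Ppbp passed the filter on low values only through the LPS libraries, and without them 6 of 8 genes were higher, with a median of 3.40. The summed level of the family was 2651 and 2478 TPM in the LPS libraries. Cxcl10 and Cxcl14 did not pass the test. Differences are on the log2(TPM + 1) scale, which understates the change of rare transcripts.

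The ELR+ neutrophil attractants included the 3 largest differences from saline with LPS, those of Cxcl5, Cxcl3 and Cxcl1. Cxcl5, an attractant known as LIX in the mouse, was 595 and 774 TPM in the LPS libraries, 1.34 and 3.35 with norepinephrine, 4.355 and 5.50 with BAFF, 0.348 and 0.263 in the libraries labelled APRIL, and 4.0 and 6.92 in saline. Both LPS values lie far above every other value, and both values of the libraries labelled APRIL lie below every other value. The log2 difference from saline was 6.76 ± 0.32 (SE) for LPS (limma, adjusted p = 0.000305) and -2.27 ± 0.32 for the libraries labelled APRIL (adjusted p = 0.00065). Cxcl5 thus rose in one group and was lower in the other.

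Cxcl1, the mouse attractant also known as KC, behaved otherwise in the libraries labelled APRIL. Its level was 209 and 217 TPM in the LPS libraries, 1.34 and 1.355 with norepinephrine, 2.92 and 2.49 with BAFF, 77.8 and 189 in the libraries labelled APRIL, and 2.56 and 3.26 in saline. Both the LPS libraries and the libraries labelled APRIL stood above all others, and the norepinephrine pair stood below all others. Against saline, the log2 difference was 5.78 ± 0.34 for LPS (limma, adjusted p = 0.000414) and 4.97 ± 0.34 for the libraries labelled APRIL (adjusted p = 2.67e-05).

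Cxcl2, known as MIP-2, was 50.8 and 23.1 TPM in the LPS libraries, 0.980 and 0.213 with norepinephrine, 0.952 and 0.731 with BAFF, 24.0 and 34.3 in the libraries labelled APRIL, and 1.43 and 0.50 in saline. The LPS range overlaps that of the libraries labelled APRIL, and the other 3 groups overlap one another. Relative to saline the log2 difference was 4.21 ± 0.41 for LPS (limma, adjusted p = 0.00227) and 3.96 ± 0.41 for the libraries labelled APRIL (adjusted p = 0.000149). The 2 LPS libraries differed by more than the 2 libraries labelled APRIL did.

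Cxcl3, a close relative of Cxcl2, was 151 and 57.7 TPM in the LPS libraries, 0.0452 and 0.0901 with norepinephrine, 0.0744 and 0.0430 with BAFF, 0.564 and 0.400 in the libraries labelled APRIL, and 0.216 and 0.0880 in saline. LPS libraries alone exceed 1 TPM, and the libraries labelled APRIL lie just above the remaining 3 groups without overlap. The log2 difference from saline was 6.36 ± 0.38 for LPS (limma, adjusted p = 0.000414) and 0.36 ± 0.38 for the libraries labelled APRIL (adjusted p = 0.438). Cxcl2 and Cxcl3 shared 161 words of 31 bases in their transcripts, which is 7.59% of the words of Cxcl2 and part of the 5.46% of Cxcl3 words found in any other gene. Reads from those stretches could have been divided between both genes.

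Ppbp encodes the precursor of the platelet chemokine CXCL7. Ppbp was 11.35 and 3.59 TPM in the LPS libraries, 0 and 0.0414 with norepinephrine, listed at 0 in both BAFF libraries and both libraries labelled APRIL, and 0 and 0.0404 in saline. It was measurable in LPS cultures and at or near 0 elsewhere. The log2 difference of LPS from saline was 2.88 ± 0.40 (limma, adjusted p = 0.00836). Beside it, Pf4 (platelet factor 4, also made by macrophages) was 253 and 51.2 TPM in the LPS libraries, against 10.85 and 4.14 TPM in saline, a log2 difference of 3.88 ± 0.91 that did not pass (adjusted p = 0.0634). The platelet gene Gp9 was at 0 in both LPS libraries and Gp6 was at most 0.0556 TPM there. Other platelet genes were measured in both groups. Itga2b was 9.38 and 4.21 TPM in the LPS libraries, against 5.79 and 7.22 TPM in saline. Itgb3 was 5.26 and 5.315 TPM with LPS, against 3.47 and 3.55 TPM in saline. Gp1bb was 0.711 and 1.58 TPM with LPS, against 1.58 and 1.6 TPM in saline. None of these 3 passed the test (limma, adjusted p = 0.991, 0.0827 and 0.656 in that order). Their part in the level of Ppbp was not tested.

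Leaving out any of the 4 libraries of the LPS against saline comparison in turn kept Cxcl1, Cxcl2, Cxcl3 and Cxcl5 at an adjusted p under 0.05, while Ppbp reached 0.0624 without saline replicate 1 and 0.0719 without saline replicate 2. Neutrophil markers were low: the 10 genes of that list summed to 29.9 and 29.5 TPM in the LPS libraries, against 3.75 and 2.0 TPM in saline. S100a8 and Camp were the 2 of 3 tested that rose, where 2.87% of all genes tested were higher. Camp passed the filter on low values only through the LPS libraries. S100a9 and Retnlg, abundant in neutrophils, were at 0 in all 10 libraries. The part of neutrophils in these differences was not tested.

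The 3 genes Cxcl1, Cxcl2 and Cxcl3 share an element in the 250 bases before their start sites. These windows are shown because all 3 genes rose with LPS while Cxcl3 differs from the other two in the libraries labelled APRIL. Sequences and start sites are those of RefSeq on GRCm38.p6, read 5′ to 3′ on the plus strand, at chr5:90890995-90891244 for Cxcl1, chr5:90903649-90903898 for Cxcl2 and chr5:90785851-90786100 for Cxcl3. Capitals mark matches to the kappaB consensus, the pattern bound by NF-kB dimers, searched by its name on both strands with overlapping matches joined.
Cxcl1: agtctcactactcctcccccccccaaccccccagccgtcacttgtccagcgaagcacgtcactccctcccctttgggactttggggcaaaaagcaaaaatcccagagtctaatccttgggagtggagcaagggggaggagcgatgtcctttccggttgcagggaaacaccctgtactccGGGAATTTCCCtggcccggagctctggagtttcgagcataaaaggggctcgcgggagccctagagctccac
Cxcl2: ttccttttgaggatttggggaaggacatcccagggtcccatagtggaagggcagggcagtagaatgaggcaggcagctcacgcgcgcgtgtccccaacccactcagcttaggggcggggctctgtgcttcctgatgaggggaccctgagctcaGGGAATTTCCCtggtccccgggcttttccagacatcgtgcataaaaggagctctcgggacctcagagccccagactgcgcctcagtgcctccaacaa
Cxcl3: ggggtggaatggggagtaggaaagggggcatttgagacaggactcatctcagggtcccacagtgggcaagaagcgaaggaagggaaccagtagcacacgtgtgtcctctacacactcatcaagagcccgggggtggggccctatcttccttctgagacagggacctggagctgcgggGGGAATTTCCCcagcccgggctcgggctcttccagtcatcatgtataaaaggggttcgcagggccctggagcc
In each window the plus strand reads GGGAATTTCC, at position -71 from the start of Cxcl1, -97 of Cxcl2 and -73 of Cxcl3, and a second match lies a base further on the minus strand. Of 32851 promoters of the same length 7.25% hold a kappaB consensus. The same capitals thus stand before Cxcl3 and before Cxcl1, which in the libraries labelled APRIL stood at 0.564 and 0.400 TPM (Cxcl3) and at 77.8 and 189 TPM (Cxcl1). Of the 8 members with a promoter in the table, Cxcl10 also holds the consensus, and Cxcl9, Cxcl12, Cxcl14 and Ppbp do not within these 250 bases. The match is a description of letters and shows no binding.

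The Cxcr3 ligands Cxcl9 and Cxcl10 differed in where the libraries labelled APRIL stood. Cxcl9, the ligand most tied to interferon gamma, was 101 and 63.3 TPM in the LPS libraries, 0.379 and 1.12 with norepinephrine, 3.025 and 2.52 with BAFF, 0.314 and 0.221 in the libraries labelled APRIL, and 2.08 and 1.96 in saline. LPS libraries were highest, the libraries labelled APRIL lowest, and no neighbouring groups in the order overlap. Against saline, the log2 difference was 4.75 ± 0.26 for LPS (limma, adjusted p = 0.000414, kept without any of the 4 libraries) and -1.26 ± 0.26 for the libraries labelled APRIL (adjusted p = 0.0044).

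Cxcl10, induced by both interferons and NF-kB, stood highest in the libraries labelled APRIL. It was 17.65 and 41.3 TPM in the LPS libraries, 1.38 and 3.52 with norepinephrine, 9.38 and 6.89 with BAFF, 93.3 and 79.5 in the libraries labelled APRIL, and 9.43 and 6.37 in saline. The LPS libraries came next without overlap, and the norepinephrine libraries were lowest. For LPS the log2 difference from saline was 1.68 ± 0.43 and did not pass (limma, adjusted p = 0.0834), while for the libraries labelled APRIL it was 3.31 ± 0.43 (adjusted p = 0.000406). LPS was lower than the libraries labelled APRIL by a tested difference of -1.63 ± 0.43 (adjusted p = 0.0121), which reached 0.0577 without APRIL replicate 1 and 0.0706 without LPS replicate 1. The ratio of Cxcl10 to Cxcl9 in TPM was 0.174 and 0.652 in the LPS libraries, 298 and 360 in the libraries labelled APRIL, and 4.52 and 3.24 in saline. Cxcl10 lies inside Art3 on the other strand, with 133 shared exon bases (5.91% of its exons), and 4.47% of its 31-base words occur in Art3. The strand setting of the quantification is not given in the sources used here. Art3 was 33.05 and 23.0 TPM in the libraries labelled APRIL, against 46.7 and 73.3 TPM in saline, an order opposite to that of Cxcl10.

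The promoter of Cxcl10 holds matches of both kinds and is shown because this gene was highest in a different group than its neighbour Cxcl9. It lies on the minus strand at chr5:92348890-92349139, and capitals mark the interferon response core (GAAA, any 2 bases, then GAAA; first) and kappaB matches (the others), both strands searched.
Cxcl10: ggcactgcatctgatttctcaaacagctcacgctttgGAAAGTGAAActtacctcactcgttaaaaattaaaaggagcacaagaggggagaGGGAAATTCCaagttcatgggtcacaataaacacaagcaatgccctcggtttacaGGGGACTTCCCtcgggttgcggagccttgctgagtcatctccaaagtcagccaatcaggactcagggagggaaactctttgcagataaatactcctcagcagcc
The interferon core reads GAAAGTGAAA at position -213, and kappaB matches begin at -159, -104 and -103, the last 2 overlapping. The core occurs in 2.98% of all promoters of this length, and among the 8 members also in Cxcl14 at -172. No match to either pattern was found in the 250 bases before Cxcl9.

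Cxcl12, the stromal ligand of Cxcr4, was 857.5 and 721 TPM in the LPS libraries, 188 and 215.5 with norepinephrine, 216.5 and 221 with BAFF, 18.2 and 39.4 in the libraries labelled APRIL, and 208 and 208 in saline. The 3 groups of norepinephrine, BAFF and saline lie within 188 to 221 TPM, with LPS above and the libraries labelled APRIL below. Relative to saline the log2 difference was 1.91 ± 0.30 for LPS (limma, adjusted p = 0.0139) and -2.91 ± 0.30 for the libraries labelled APRIL (adjusted p = 0.000131). Without LPS replicate 1 the adjusted p for LPS was 0.104, without saline replicate 1 it was 0.0847, and without saline replicate 2 it was 0.101, while the difference stayed between 1.79 and 2.04. Of 9 preadipocyte and fibroblast markers tested 3 were higher with LPS and 0 lower, where 2.87% of all genes tested were higher and 0.932% lower. Dcn (decorin) was 1184 and 682 TPM in the LPS libraries, against 173 and 128 TPM in saline (2.59 ± 0.34, adjusted p = 0.00712). Pi16 differed by 1.29 ± 0.17 (adjusted p = 0.00794) and Pdgfra by 0.92 ± 0.18 (adjusted p = 0.038). Pi16 reached 1 TPM in the LPS libraries alone and so passed the filter on low values through that group. Among the tested markers not called, Col1a1, Col3a1, Pdgfrb and Cd34 had a lower mean TPM with LPS than in saline. Lum and Ly6a had a higher mean. The 10 markers of the list summed to 10290 and 9570 TPM in the LPS libraries, against 10030 and 8857 TPM in saline, so the sums overlap. Their part in the level of Cxcl12 was not tested.

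Its promoter is printed for contrast, since Cxcl12 rose with LPS and its window holds no match to either pattern, so nothing is in capitals. It lies on the plus strand at chr6:117168285-117168534 and is 64.4% G and C.
Cxcl12: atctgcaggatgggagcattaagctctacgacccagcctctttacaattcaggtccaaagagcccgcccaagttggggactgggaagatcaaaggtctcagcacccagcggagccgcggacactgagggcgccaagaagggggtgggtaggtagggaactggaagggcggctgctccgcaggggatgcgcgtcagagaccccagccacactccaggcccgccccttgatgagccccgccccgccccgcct
Absence of these letters from the window says nothing about sites elsewhere.

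Ackr3, the atypical receptor that binds Cxcl12 and removes it from the surroundings, ran in the same order as its ligand at both ends. Ackr3 was 47.5 and 45.9 TPM in the LPS libraries, 18.65 and 19.8 with norepinephrine, 14.8 and 12.7 with BAFF, 1.49 and 1.515 in the libraries labelled APRIL, and 13.4 and 10.1 in saline. LPS libraries were highest and the libraries labelled APRIL lowest, with no overlap between LPS and any other group. The log2 difference from saline was 1.92 ± 0.15 for LPS (limma, adjusted p = 0.000893) and -2.34 ± 0.15 for the libraries labelled APRIL (adjusted p = 1.84e-05). Cxcr4, the signalling receptor of Cxcl12, was 1.43 and 0.624 TPM in the LPS libraries, 13.2 and 14.8 in the libraries labelled APRIL, and 3.175 and 2.08 in saline, and was higher in the libraries labelled APRIL by 2.06 ± 0.46 (adjusted p = 0.00605).

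Of the 10 receptors of the family (Cxcr1 to Cxcr6 and Ackr1 to Ackr4) only Cxcr2, Cxcr4 and Ackr3 passed the filter. Cxcr3, the receptor of Cxcl9 and Cxcl10, was at most 0.0590 TPM, and Cxcr6, the receptor of Cxcl16, was at most 0.214 TPM in any library. Cxcr2, the receptor of the ELR+ members, was at most 2.23 TPM. It was 1.17 and 2.23 TPM in the libraries labelled APRIL, against 0.573 and 0.700 TPM in saline. That difference of 0.69 ± 0.24 passed (limma, adjusted p = 0.0403), where 33.1% of all genes tested were higher. The call did not hold with each library left out in turn. Transcripts of Cxcr2, Cxcr3 and Cxcr6 were thus few in every library. The ELR+ ligands summed to 1018 and 1075 TPM in the LPS libraries, 102.8 and 224.1 in the libraries labelled APRIL, and 8.21 and 10.81 in saline.

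Cxcl14, the most abundant member in saline, did not pass the test with LPS. It was 485 and 486 TPM in the LPS libraries, 258 and 386 with norepinephrine, 445 and 467.5 with BAFF, 81.0 and 193 in the libraries labelled APRIL, and 415.5 and 448 in saline. LPS, BAFF and saline lie within 415.5 to 486 TPM, norepinephrine lies below them and the libraries labelled APRIL lie lowest. Against saline, the log2 difference was 0.17 ± 0.36 for LPS (limma, adjusted p = 0.890) and -1.78 ± 0.36 for the libraries labelled APRIL (adjusted p = 0.00364). The level of Cxcl12 relative to Cxcl14 was 1.77 and 1.48 in the LPS libraries, 0.225 and 0.204 in the libraries labelled APRIL, and 0.50 and 0.465 in saline.

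Cxcl16, made as a membrane protein that the proteases Adam10 and Adam17 release, was 172 and 90.8 TPM in the LPS libraries, 24.4 and 11.1 with norepinephrine, 28.2 and 14.7 with BAFF, 28.9 and 46.4 in the libraries labelled APRIL, and 28.5 and 13.8 in saline. Both LPS values exceed all others, and norepinephrine, BAFF and saline overlap. The log2 difference of LPS from saline was 2.59 ± 0.53 (limma, adjusted p = 0.0400), and for the libraries labelled APRIL it was 0.85 ± 0.53 (adjusted p = 0.204). Leaving out any of the 4 libraries lost the call for LPS, while the log2 difference stayed between 2.09 and 3.09. Testing all detected genes moved the adjusted p (limma) to 0.0963, and fitting LPS and saline alone moved it to 0.106. The call thus did not hold under those settings. None of them takes the replicate number into account, and LPS was higher than saline in both replicate numbers. Adam17 was 65.5 and 57.65 TPM in the LPS libraries, against 38.5 and 37.7 TPM in saline, a log2 difference of 0.68 ± 0.14 (adjusted p = 0.0434) whose call was lost without any of the 4 libraries (adjusted p from 0.0836 to 0.25).

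In LPS, norepinephrine, BAFF and saline, replicate 1 was higher than replicate 2 both for Cxcl16 and for the macrophage markers in sum, while in the libraries labelled APRIL Cxcl16 was higher in replicate 2 and the markers in sum were higher in replicate 1. The level of Cxcl16 in replicate 1 over that in replicate 2 was 1.89 in LPS, 2.20 in norepinephrine, 1.91 in BAFF, 0.622 in the libraries labelled APRIL and 2.07 in saline. For the macrophage lysozyme gene Lyz2 the same ratios were 3.91, 4.71, 2.34, 1.63 and 3.26 in that order of groups. The 12 macrophage markers summed to 1593 and 409.8 TPM in the LPS libraries, 1308 and 296.1 with norepinephrine, 1129 and 507.5 with BAFF, 501.1 and 342.7 in the libraries labelled APRIL, and 1327 and 438.5 in saline. Replicate 1 was the higher for 12 of 12 markers in LPS, norepinephrine and BAFF, 6 of 12 in the libraries labelled APRIL and 11 of 12 in saline. Of 11 macrophage markers tested 0 were called for LPS, where 3.8% of all genes tested were called, and the sums of LPS and saline overlap. The median log2 difference of the 11 was -0.04, against -0.01 over all genes. Single markers ran from -1.235 ± 1.15 for C1qa (limma, adjusted p = 0.697) to 3.08 ± 0.71 for Marco (adjusted p = 0.0617). This fit takes no account of the replicate number, and the gap between replicates widens these SE, so absence of a call does not show absence of a difference. Within each replicate number Adgre1, Itgam, Marco and Fcgr1 were higher with LPS than in saline. C1qa, C1qb, C1qc and Csf1r were lower, and Cd68, Lyz2 and Mrc1 went both ways. The part of macrophages in the level of Cxcl16 was not tested. Cxcl16 also overlaps Zmynd15 on the other strand, with 552 shared exon bases (18.3%) and 18.5% of its 31-base words in other genes. Zmynd15 was 12.7 and 8.51 TPM in the LPS libraries, against 2.545 and 0.560 TPM in saline.

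**Figure D2:**
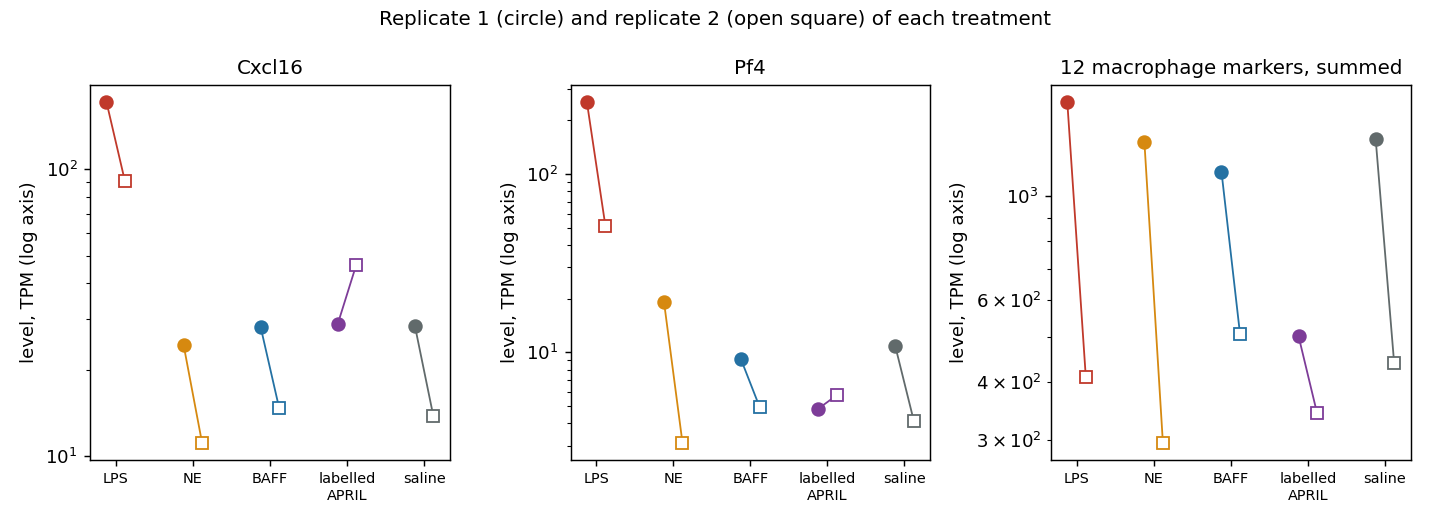
Levels in TPM on log axes of Cxcl16, Pf4 and 12 macrophage markers summed, with replicate 1 (circle) joined to replicate 2 (open square) in each treatment (NE, norepinephrine). Replicate 1 is the higher for all 3 measures in LPS, norepinephrine, BAFF and saline, and Cxcl16 in LPS lies above every other group while the marker sum overlaps.

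Norepinephrine, the adrenergic arm, gave no call in the family in the fit of all 10 libraries. Of the 10 genes 0 were called against saline, where 0.699% of all genes tested were called (0.614% higher, 0.0847% lower), and at an unadjusted p below 0.05 (limma) 3 were lower and 0 higher. At that unadjusted p 907 of all 14166 genes tested were lower and 1582 higher. The log2 difference was negative for 9 of 10 genes, with a median of -0.375 against 0.04 over all genes. The share of all genes with a negative difference is not given here. Among the 9, Cxcl3 (-0.11 ± 0.38) stayed below 1 TPM in both groups. Cxcl10 differed by -1.42 ± 0.43 (adjusted p = 0.163), Cxcl5 by -0.98 ± 0.32 (adjusted p = 0.191) and Cxcl9 by -0.82 ± 0.26 (adjusted p = 0.183). For Cxcl1, Cxcl5, Cxcl9, Cxcl10 and Cxcl14 both norepinephrine values lie below both saline values. The share of all genes with such an order is not given here, so it is no result about the family. With the libraries labelled APRIL left out of the fit, Cxcl1 passed the test at -0.73 (adjusted p = 0.0258), where 5.95% of all genes tested were called. With the replicate number also taken as a block, a choice made after seeing the data, both Cxcl1 (adjusted p = 0.0211) and Cxcl5 (-0.98, adjusted p = 0.021) passed. In that fit 11.6% of all genes tested were called, 1196 higher and 452 lower. Cxcl12, at -0.05 ± 0.30, and Cxcl16, at -0.25 ± 0.53, overlapped saline.

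No difference between BAFF and saline was detectable in the family with 2 libraries a group. Of the 10 genes 0 were called against saline, where 0.0141% of all genes tested were called, and 0 reached an unadjusted p under 0.05 (limma; smallest adjusted p 0.996). Log2 differences ran from -0.12 to 0.32. Cxcl12 shows how close the pairs were, since it was 216.5 and 221 TPM with BAFF, against 208 and 208 TPM in saline. Cxcl9 had the largest difference, 0.32 ± 0.26, with both BAFF values above both saline values.

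**Figure D3:**
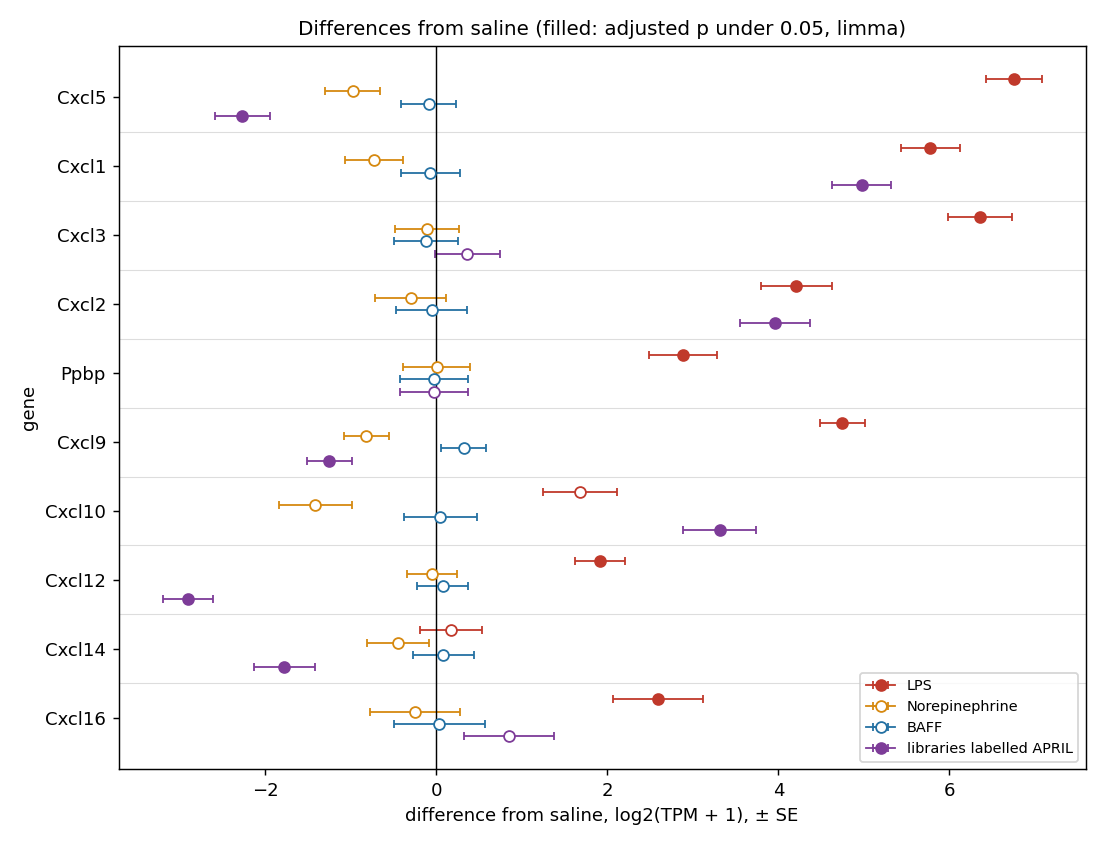
Log2(TPM + 1) difference from saline of the 10 genes for each treatment, with SE bars from limma; filled symbols have an adjusted p under 0.05. LPS symbols lie right of 0 for all 10 genes, BAFF symbols lie near 0, and those of the libraries labelled APRIL lie on both sides.

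The libraries labelled APRIL differed from saline in both directions. Against saline 3 of the 10 genes were higher (Cxcl1, Cxcl2 and Cxcl10) and 4 were lower (Cxcl5, Cxcl9, Cxcl12 and Cxcl14), where 58.1% of all genes tested were called, 33.1% higher and 25.0% lower (limma). The 7 of 10 called is a share close to that background. Calls in both directions are common over all genes too, so neither is a result about the family. All 7 calls held without any of the 4 libraries. The 10 preadipocyte and fibroblast markers summed in the libraries labelled APRIL to 1969 and 2454 TPM, against 10030 and 8857 TPM in saline. Most of the saline sum was Col1a1 (5697 and 5122 TPM) and Col3a1 (3466 and 2887 TPM). Of 9 markers tested 5 were lower and 1 was higher, where 25.0% of all genes tested were lower and 33.1% higher. Pdgfrb went the other way, at 106 and 150 TPM against 83.8 and 88.1 TPM in saline. The part of these markers in the lower Cxcl12 and Cxcl14 was not tested.

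Setting BAFF against the libraries labelled APRIL, the pair of cytokines the series is named for, 4 of 10 genes were higher with BAFF and 3 were lower, where 57.3% of all genes tested were called, 28.3% higher and 29.0% lower. Cxcl12 differed by 2.98 ± 0.30 (limma, adjusted p = 0.000127), Cxcl5 by 2.18 ± 0.32 (adjusted p = 0.00083), Cxcl14 by 1.86 ± 0.36 (adjusted p = 0.00305) and Cxcl9 by 1.57 ± 0.26 (adjusted p = 0.00154). Cxcl1 was lower with BAFF by -5.05 ± 0.34 (adjusted p = 2.8e-05), Cxcl2 by -4.01 ± 0.41 (adjusted p = 0.000153) and Cxcl10 by -3.27 ± 0.43 (adjusted p = 0.000464). The share called is again near that of all genes, in both directions, and is no result about the family. The libraries labelled APRIL enter both this comparison and that with saline.

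LPS and the libraries labelled APRIL, compared directly, differed for 8 of 10 genes, where 58.4% of all genes tested were called, 25.4% higher and 33.1% lower. Without Cxcl3 and Ppbp, which passed the filter only through LPS, 5 of 8 genes were higher with LPS and 1 was lower. Higher with LPS were 7 genes, led by Cxcl5 at 9.03 ± 0.32 (limma, adjusted p = 3.38e-06), Cxcl9 at 6.00 ± 0.26 (adjusted p = 6.31e-06) and Cxcl3 at 6.00 ± 0.38 (adjusted p = 1.88e-05). Cxcl12 was higher by 4.82 ± 0.30 (adjusted p = 1.74e-05), and Cxcl10 alone was lower. Cxcl1, at 0.80 ± 0.34 (adjusted p = 0.0780), and Cxcl2, at 0.25 ± 0.41 (adjusted p = 0.633), did not pass the test. Without APRIL replicate 2 Cxcl1 passed at 1.44 (adjusted p = 0.000423).

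Against norepinephrine, LPS was higher for 9 of 10 genes and lower for 0, where 7.81% of all genes tested were called, 3.62% higher and 4.19% lower. Cxcl10 passed here at 3.10 ± 0.43 (limma, adjusted p = 0.00786) and Cxcl14, at 0.62 ± 0.36 (adjusted p = 0.336), did not. Against BAFF, LPS was higher for 8 of 10 genes and lower for 0, where 3.36% of all genes tested were called, 2.06% higher and 1.3% lower. Cxcl10 at 1.63 ± 0.43 (adjusted p = 0.0945) and Cxcl14 at 0.09 ± 0.36 (adjusted p = 0.922) did not pass. Cxcl3 and Ppbp passed the filter only through the LPS libraries. Without them 7 of 8 genes were higher than with norepinephrine and 6 of 8 than with BAFF, with 0 lower in both. These comparisons share the LPS libraries with that against saline.

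The make-up of the family also differed between groups. ELR+ genes held 38.4% and 43.4% of the summed level in the LPS libraries, 0.779% and 0.812% with norepinephrine, 1.17% and 1.22% with BAFF, 31.7% and 38.5% in the libraries labelled APRIL, and 1.22% and 1.57% in saline. The LPS libraries and the libraries labelled APRIL thus had overlapping ELR+ shares, made up of different genes. Cxcl5 held 22.5% and 31.3% of the sum in LPS, and Cxcl1 held 24.0% and 32.5% in the libraries labelled APRIL. The ratio of Cxcl1 to Cxcl5 was 0.351 and 0.280 in the LPS libraries, 224 and 720 in the libraries labelled APRIL, and 0.641 and 0.471 in saline. The summed level itself was 2651 and 2478 TPM with LPS, 476.0 and 622.4 with norepinephrine, 710.4 and 721.3 with BAFF, 324.4 and 582.8 in the libraries labelled APRIL, and 671.6 and 689.6 in saline.

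**Figure D4:**
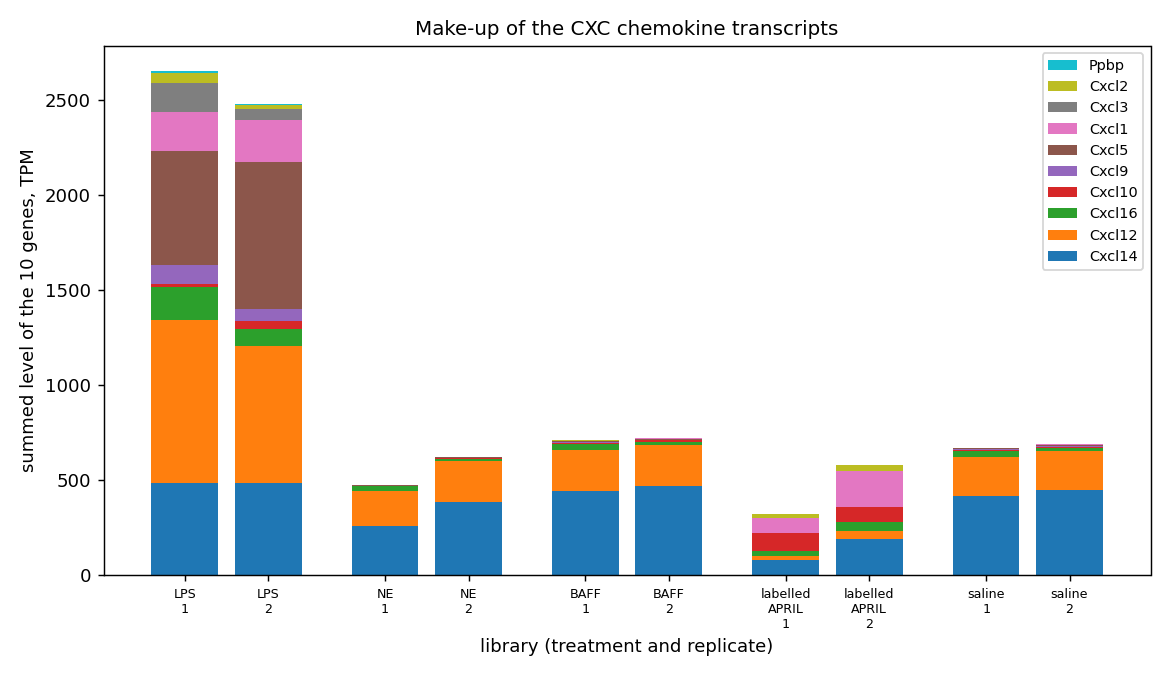
Summed TPM of the 10 CXC chemokine genes in each library, stacked by gene (NE, norepinephrine). The LPS bars reach 2651 and 2478 TPM, and the saline bars, at 671.6 and 689.6 TPM, consist mostly of Cxcl14 and Cxcl12.

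In the mouse, 7 of the 10 genes lie on chromosome 5. On mm10 they run from Cxcl5 (ENSMUSG00000029371, chr5:90759360-90761624), Ppbp (ENSMUSG00000029372, chr5:90768518-90770063), Cxcl3 (ENSMUSG00000029379, chr5:90786103-90789600), Cxcl1 (ENSMUSG00000029380, chr5:90891241-90893115) and Cxcl2 (ENSMUSG00000058427, chr5:90903871-90905938), all on the plus strand, to Cxcl9 (ENSMUSG00000029417, chr5:92321347-92328079) and Cxcl10 (ENSMUSG00000034855, chr5:92346638-92348889) on the minus strand. Cxcl12 (ENSMUSG00000061353) lies at chr6:117168535-117181367, Cxcl14 (ENSMUSG00000021508) at chr13:56288643-56296551 and Cxcl16 (ENSMUSG00000018920) at chr11:70453983-70459984. Within the ELR+ cluster Cxcl1 and Cxcl2, which start 132 and 145 kb from the start of Cxcl5, were higher in the libraries labelled APRIL. Ppbp, at 9.16 kb and listed at 0 in both of those libraries, and Cxcl3, at 26.7 kb, did not pass there, and Cxcl5 was lower. With LPS all 5 rose, though Cxcl3 and Ppbp passed the filter on low values only through the LPS libraries. The Ppbp call was lost when either saline library was left out.

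**Figure D5:**
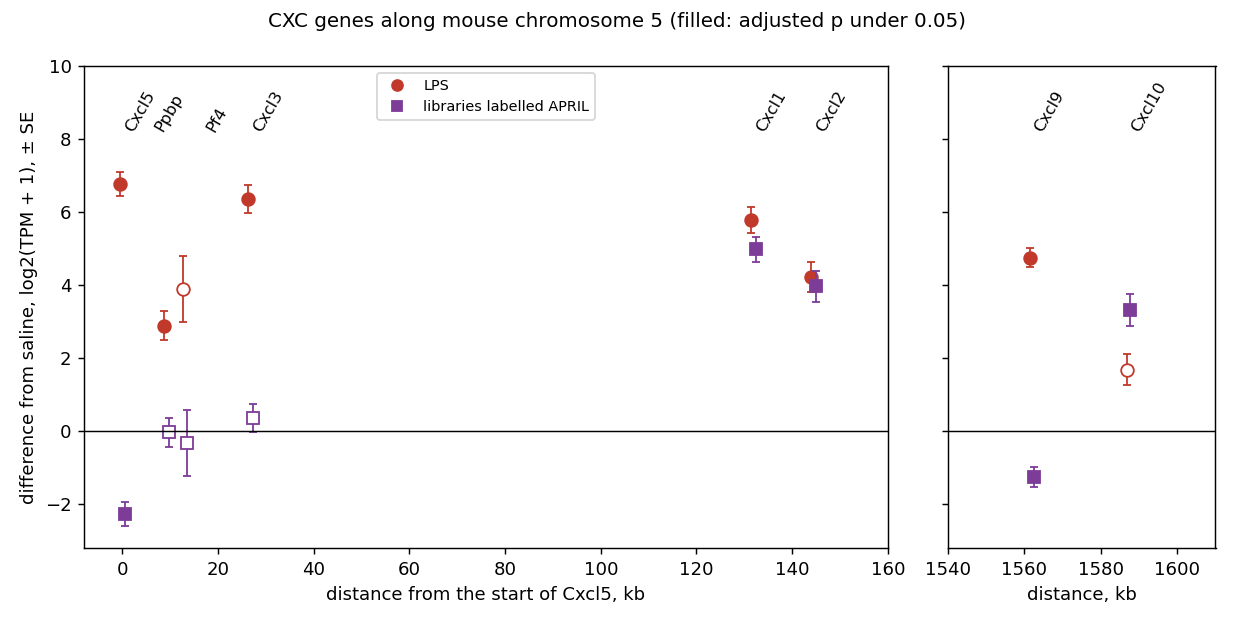
Difference from saline (log2(TPM + 1), with SE) of the CXC genes on chromosome 5 by distance from the start of Cxcl5 in kb; Pf4 is included; circles are LPS, squares the libraries labelled APRIL, and filled symbols have an adjusted p under 0.05. The circles lie above 0 for every gene, while the squares lie above 0 and are filled for Cxcl1, Cxcl2 and Cxcl10 and lie below 0 and are filled for Cxcl5 and Cxcl9.

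Genes of the pathways around the family were read from lists chosen with earlier results known. NF-kB subunits and feedback genes rose in 7 of 11 cases with LPS and were higher in 10 of 11 cases in the libraries labelled APRIL (limma), with median log2 differences of 1.24 and 1.76 against -0.01 and 0.08 over all genes. Over all genes tested 2.87% were higher with LPS and 33.1% were higher in the libraries labelled APRIL. Of the 7 LPS calls only those of Relb and Nfkbiz held without each of the 4 libraries in turn. Nfkbiz, a nuclear cofactor that NF-kB needs at a subset of its targets, was 24.6 and 27.3 TPM in the LPS libraries, 21.2 and 20.1 in the libraries labelled APRIL, and 7.92 and 7.0 in saline. With LPS it rose by 1.67 ± 0.11 (adjusted p = 0.000507), while the NF-kB subunits Relb and Nfkb2 rose by 1.27 ± 0.13 (adjusted p = 0.0025) and 1.24 ± 0.16 (adjusted p = 0.00678). Bcl3, a nuclear partner of NF-kB, rose by 0.67 ± 0.09 (adjusted p = 0.00912). Nfkb2 reached 0.0606 without LPS replicate 1 and 0.0717 without saline replicate 2, and Bcl3 reached 0.0785 without saline replicate 1 and 0.0917 without saline replicate 2. The highest adjusted p with a library left out was 0.109 for Nfkbia, 0.121 for Tnfaip3 and 0.233 for Rela, whose call was lost without any of the 4. In the libraries labelled APRIL the smallest p-values were those of Bcl3 (1.71 ± 0.09), Nfkbib (2.28 ± 0.13), Relb (2.08 ± 0.13) and Rela (1.37 ± 0.11).

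Some genes of interferon signalling were also called. Over all genes tested 2.87% were higher with LPS, and 33.1% were higher and 25.0% lower in the libraries labelled APRIL. Counts over this list are not reported here, so the genes named do not stand for the list as a whole. Irf1, an interferon-induced transcription factor, was 64.25 and 61.6 TPM in the LPS libraries, 504 and 671.5 in the libraries labelled APRIL, and 27.95 and 23.8 in saline. It rose by 1.25 ± 0.15 with LPS (limma, adjusted p = 0.00453) and was higher by 4.44 ± 0.15 in the libraries labelled APRIL (adjusted p = 2.6e-06), where Cxcl10 was also highest. The part of Irf1 in the level of Cxcl10 was not tested. Also higher with LPS were the interferon receptor chains Ifngr2 (1.14 ± 0.12), Ifnar2 (1.24 ± 0.17) and Ifnar1 (0.83 ± 0.14), and Ifngr1, named here after its value was seen. The Ifngr2 call held without each of the 4 libraries in turn. With a library left out the adjusted p reached 0.0827 for Ifnar2, 0.159 for Ifnar1 and 0.311 for Ifngr1, and the calls of Ifnar1 and Ifngr1 were lost without any of the 4. Irf1 reached 0.055 with LPS when saline replicate 2 was left out. In the libraries labelled APRIL Ifngr1 was lower by -0.51 ± 0.11 (adjusted p = 0.00503).

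Among factors that set the lifetime of chemokine messages, 1 of 6 tested rose with LPS and 4 were higher in the libraries labelled APRIL, where 2.87% and 33.1% of all genes tested were higher. Zc3h12a, the RNase Regnase-1, was 64.5 and 69.7 TPM in the LPS libraries, against 10.9 and 6.96 TPM in saline, a rise of 2.81 ± 0.23 (limma, adjusted p = 0.0011). Zfp36 (tristetraprolin), which destabilises messages rich in A and U, was 463 and 549 TPM in the libraries labelled APRIL, against 21.5 and 19.8 TPM in saline (4.54 ± 0.20, adjusted p = 6.35e-06). Elavl1, Hnrnpd and Zc3h12a were the other genes higher there. Of 10 genes for LPS sensing 1 rose with LPS, the LPS-binding protein gene Lbp, by 2.01 ± 0.20 (adjusted p = 0.00223). In the libraries labelled APRIL 5 of these 10 were higher, and 1, Lbp, was lower by -1.09 ± 0.20 (adjusted p = 0.00208), where 33.1% of all genes tested were higher and 25.0% lower. The calls of Myd88, Traf6 and Lbp held without each of the 4 libraries in turn, while with a library left out the adjusted p reached 0.0634 for Ly96, 0.172 for Tlr4 and 0.12 for Ticam1.

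Of the proteoglycan core proteins that can hold chemokines at the cell surface, 2 of 8 rose with LPS and 4 were lower in the libraries labelled APRIL (limma), where 2.87% of all genes tested were higher and 25.0% lower in the same comparisons. The LPS call of Sdc3 was lost without any of its 4 libraries (adjusted p from 0.0543 to 0.254), and that of Sdc4 held. Sdc4 (syndecan-4) rose by 0.86 ± 0.09 with LPS (adjusted p = 0.0029) and by 0.57 ± 0.09 with norepinephrine (adjusted p = 0.0476), the 1 call in these lists for norepinephrine. That call was lost without any of its 4 libraries, with adjusted p from 0.152 to 0.297. Sdc4, Gpc4, Sdc3 and Sdc2 were the 4 lower in the libraries labelled APRIL. Of the IL-17 receptor pathway, which prolongs the life of ELR+ messages, 0 of 3 tested genes were called with LPS, while Il17ra was higher by 2.60 ± 0.15 (adjusted p = 1.56e-05) and Traf3ip2 lower by -1.72 ± 0.17 (adjusted p = 0.000109) in the libraries labelled APRIL. Of 5 chemokine proteases tested 1, Adam17, was called with LPS in the fit of all libraries, and that call was lost without any of its 4 libraries. For BAFF 0 genes of these lists were called.

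The genes whose levels ran most like those of 4 members over the 10 libraries were found by Pearson's r on log2(TPM + 1) among 9218 genes, as a description in which all points share the same libraries and those labelled APRIL stand apart. For Cxcl5 they were Saa2 (r = 0.992), Saa1 (r = 0.989) and Cfb (r = 0.989). For Cxcl12 they were Apbb1 (r = 0.995), Plat (r = 0.992) and Stc1 (r = 0.988). For Cxcl10 Wtap (r = 0.973) and Nme6 (r = 0.970) were among them, and for Cxcl14 they were Lima1 (r = 0.978), Dbn1 (r = 0.976) and Fscn1 (r = 0.975).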

How the data were processed

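RNA of 10 libraries was prepared with mirVana and Illumina TruSeq kits, per the labels' protocols. The authors deposited one table of TPM per library, made with kallisto (version not given in the sources used here) on mm10, per the submitters' processing notes. Ensembl IDs were named through GENCODE, and 27458 of 28987 had a symbol. Groups were compared with limma 3.58.1 in R 4.3.3 on log2(TPM + 1) with a mean-dependent variance trend, 5 group means in 1 fit of the 10 libraries (5 residual degrees of freedom), with p-values adjusted by the Benjamini-Hochberg method within each comparison over the 14166 genes that reached 1 TPM in 2 or more libraries. The script was tested on simulated data. Figures and tables were made in Python 3.11.15 with matplotlib 3.10.9. Shared sequence was counted as 31-base words between transcripts. Promoter windows, credited to RefSeq on GRCm38.p6, were found for 8 members. The depth is unknown. Named were all members, up to 4 called genes of smallest p per list and comparison, and 5 receptors. A few genes and the counts that need them are not reported here. Members and lists were chosen with earlier results of these data known.

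Alternatives were pseudocounts of 0.1 and 0.5, no filter, a filter at 5 TPM, rescaling by median ratios, the replicate number as a block, only the groups compared, leaving out the libraries labelled APRIL, and leaving out each library in turn. TPM depend on all other transcripts in a library, and kallisto shares reads between similar transcripts, which bears on Cxcl2 and Cxcl3.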

Additional observations from a re-analysis of the deposited data

How the results depend on the processing

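The counts of CXC chemokine genes called with LPS against saline (8), in the libraries labelled APRIL against saline (7), with BAFF against the libraries labelled APRIL (7) and with LPS against each other group stayed within 1.5 times under the pseudocounts, filters, scaling, fits of the groups compared alone and replicate block tried. With each library left out in turn the counts ranged from 5 to 7 for LPS against saline (5 without either saline library), 5 to 6 for LPS against BAFF, 7 to 9 for LPS against norepinephrine and 6 to 9 for LPS against the libraries labelled APRIL. They stayed at 7 for both other comparisons with the libraries labelled APRIL and at 0 for norepinephrine and BAFF against saline. Norepinephrine against saline had 0 genes called in the fit of all 10 libraries and 1 (Cxcl1) without the libraries labelled APRIL. Over all genes the same comparison had 99 calls (87 higher, 12 lower), 843 without the libraries labelled APRIL, and 141 (85 higher, 56 lower) after median-ratio scaling, and LPS against saline had 539 calls, 922 without those libraries, 226 in a fit of LPS and saline alone and 112 to 374 with a library left out. Median-ratio scaling moved the median log2 difference over all genes from 0.08 to -0.03 for the libraries labelled APRIL.

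The replicate numbers did not pair the libraries of all 5 groups: deviations of same-numbered libraries correlated at 0.272 to 0.479 among LPS, norepinephrine, BAFF and saline and at -0.108 to 0.0264 with the libraries labelled APRIL. With the replicate number as a block the counts were 8 for LPS, 0 for norepinephrine, 0 for BAFF and 7 for the libraries labelled APRIL against saline, and, for LPS, 9 against norepinephrine, 8 against BAFF and 8 against the libraries labelled APRIL, with 7 between BAFF and the libraries labelled APRIL. A block in a fit without the libraries labelled APRIL, chosen after seeing the data, gave 2 calls for norepinephrine against saline, Cxcl1 (adjusted p = 0.0211) and Cxcl5 (adjusted p = 0.021). That fit called 1648 of all 14166 genes tested (11.6%).

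The differences that changed sign had not passed the test. Under median-ratio scaling these were, for BAFF, Cxcl10 (-0.066), Cxcl12 (-0.054), Cxcl14 (-0.046) and Cxcl16 (-0.085), and, for norepinephrine, Ppbp (-0.000996). With a library left out, BAFF against saline ranged from -0.203 to 0.0549 for Cxcl1, -0.403 to 0.293 for Cxcl2, -0.424 to 0.239 for Cxcl5, -0.204 to 0.296 for Cxcl10 and -0.463 to 0.532 for Cxcl16. Norepinephrine against saline ranged from -0.654 to 0.0524 for Cxcl2, -0.149 to 0.0497 for Cxcl12, -0.784 to 0.284 for Cxcl16 and -0.0286 to 0.030 for Ppbp, and LPS against the libraries labelled APRIL from -0.303 to 0.802 for Cxcl2. The causes were not tested. With 2 libraries a group and no counts, small differences of rare transcripts are not detectable here.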
